A study of Mus musculus with 24 samples.

Results

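The 4 hourly libraries of newly transcribed RNA from restimulated Th1 cells, at 1, 2, 3 and 4 h of replicate 1, are described here as 3 hourly steps: 2 h minus 1 h, 3 h minus 2 h and 4 h minus 3 h. A step is the difference in log2(FPKM + 1) between neighbouring hours, where FPKM is fragments per kilobase of gene scaled to the fragments of the library, so that a step of 1 is close to a 2-fold change. Genes were taken where their mean FPKM over these 4 libraries was at least 5, which held for 7050 of the 9420 genes in the deposited table. Just inside this limit lay Gja1 and Wdr13 at 5.005 and Pyroxd1 at 5.01, and just outside lay Nek4 at 4.9975 and Dvl2 and Llgl2 at 4.995. Each hour had 1 library in this series, so every step is a value without a test.

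The cells, from mice of the DO11.10 strain, were CD4+ T cells of the Th1 effector type. This strain carries a transgenic T cell receptor. Every stimulated library shared the same agents, namely plate-bound goat antibody against hamster immunoglobulin G with soluble anti-CD3 at 1 µg/ml and anti-CD28 at 2.5 µg/ml. The 0 h library is the same cell type at rest. RNA made during the labelling time was marked with 4-thiouridine (4sU, a uridine analogue that allows new RNA to be separated from old) at 200 µM for 1 h. The labels do not state whether the labelling hour ended at collection, nor whether replicate numbers stand for separate animals or cultures. Replicate 2 of new RNA has 0, 1 and 4 h only. Total RNA at 0, 2 and 4 h and ribosome footprints at 1, 2 and 4 h, all of replicate 1, were used as readouts that did not enter the hourly steps. Footprints are the RNA fragments covered by translating ribosomes.

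Signals from the T cell receptor and CD28 activate the factors AP-1, NF-kB, NFAT and serum response factor in T cells. Immediate early genes need no new protein and are switched on and off quickly, and many of them encode transcription factors. Later changes include cytokines, factors that hold the response back, and the growth programme driven by Myc, which builds ribosomes. Labelled RNA follows synthesis more closely than total RNA does, because old transcripts are removed.

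The T cell marker genes were present at every hour, with summed levels of 1118, 1381, 1143 and 1078 FPKM at 1 to 4 h for 8 of 8 markers. The 6 Th1 markers summed to 5764, 7496, 7574 and 7860 FPKM, most of it Ifng. Markers of B cells were low and declined, from 42.2 to 14.0 FPKM for the 8 of 11 present in the table. The 5 of 8 NK cell markers in the table summed to 711, 2242, 2627 and 3483 FPKM, most of which was Gzmb, a granzyme that activated T cells also make. The 5 of 6 CD8 T cell markers summed to 133, 211, 211 and 251 FPKM. The 3 of 9 macrophage markers in the table stayed between 28.2 and 38.3 FPKM. Regulatory T cell markers (5 of 5) summed to between 904 and 1239 FPKM, Th2 markers (6 of 6) to between 73.3 and 119.5 FPKM, dendritic cell markers (3 of 8) to between 62.4 and 140 FPKM, and Th17 markers (3 of 5) to between 7.73 and 20.4 FPKM. In replicate 2 the CD8 T cell markers summed to 22.2 and 49.5 FPKM at 1 and 4 h. Dendritic cell markers (Batf3, Ccr7 and Cst3) went from 406 to 324 FPKM there, against 62.4 to 129 FPKM in replicate 1. Th17 markers went from 1.80 to 2.07 FPKM there, against 9.06 to 7.73 FPKM. The other lists changed in the same direction in both replicates from 1 h to 4 h. No marker used was at 0 at any of the 4 hours of replicate 1, and the part of other cell types in the steps was not tested. In bulk RNA, fewer cells of a type and less RNA per cell cannot be told apart, and FPKM shows each gene only relative to the rest of its library.

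The hour from 1 h to 2 h had the most genes past 2-fold. In that step 248 genes (3.52% of the 7050) were at least 2-fold higher and 215 (3.05%) at least 2-fold lower. Between 2 h and 3 h 58 genes (0.823%) were at least 2-fold higher and 109 (1.55%) at least 2-fold lower. Between 3 h and 4 h only 3 genes (0.0426%) passed 2-fold upward and 3 (0.0426%) downward. The spread of the step over genes narrowed in the same order, with an SD of 0.54, 0.41 and 0.24. The direction balance of the first step depended on scaling: after median-of-ratios scaling, which moved the median gene of that step from -0.04 to 0.06, 343 genes were past 2-fold upward and 158 downward.

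**Figure D1:**
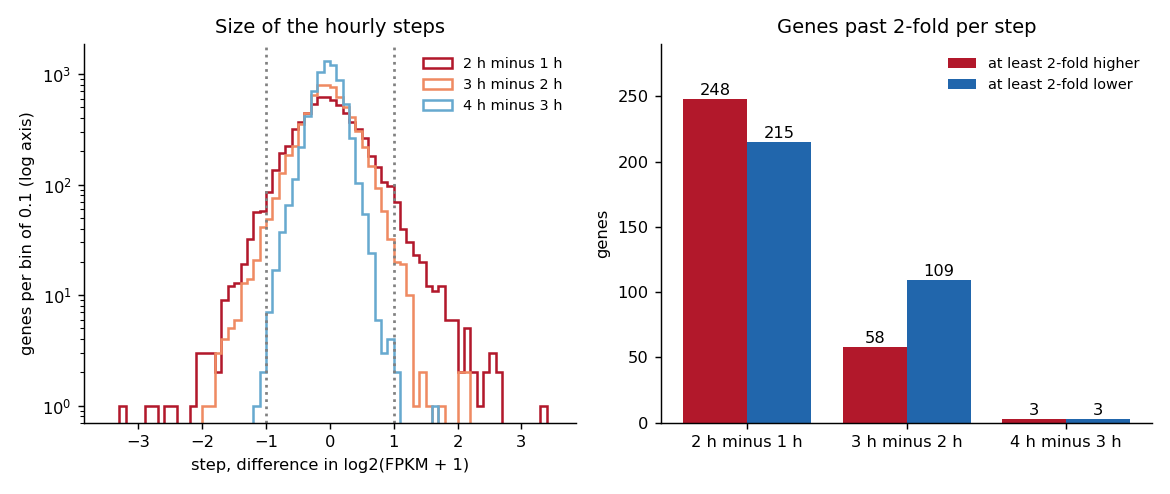
Left, number of genes (log axis) by size of the step in log2(FPKM + 1) for the 3 hourly steps, with dotted lines at a 2-fold difference; right, number of the 7050 genes at least 2-fold higher or lower in each step. The curves narrow from the first step to the last, and the genes past 2-fold number 463, 167 and 6.

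These counts have to be read beside the difference between replicate libraries of the same hour. At 1 h the libraries of replicates 1 and 2 differed with an SD over genes of 0.49, and 301 genes (4.27%) differed by at least 2-fold. At 4 h the SD was 0.55 and 442 genes (6.27%) differed by at least 2-fold. The gap between replicates at 4 h was thus wider than the whole step from 3 h to 4 h within replicate 1, whose SD was 0.24. The second step, with an SD of 0.41 and 167 genes past 2-fold, was also smaller than both gaps. The first step, with an SD of 0.54 and 463 genes, was close in size to the gap at 4 h. The sum of the 3 steps can be compared directly, since both replicates have 1 h and 4 h. Of 761 genes at least 2-fold higher at 4 h than at 1 h in replicate 1, 746 were also higher in replicate 2 and 537 by at least 2-fold. Of 999 genes at least 2-fold lower, 981 were lower in replicate 2 and 506 by at least 2-fold. Only 2 genes were past 2-fold in opposite directions, and the net change of a gene differed between replicates by a median of 0.27. For the 26 gene lists described in the following paragraphs, the median of the first step had the opposite sign in 3 when the 1 h library of replicate 2 was used, namely glycolysis, cholesterol synthesis and interferon response genes. The median of the last step had the opposite sign in 12 of the 26 with the 4 h library of replicate 2, among them immediate early factors, quiescence, mitosis and ribosome genes, so the last step of a list is a value of replicate 1 alone.

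Over the 4 hours 1975 genes (28.0%) spanned a range of at least 2-fold, and the counts of peaks and floors in this paragraph are over these genes. The highest level was at 1 h in 995 genes, at 2 h in 191, at 3 h in 127 and at 4 h in 662. The lowest level was at 1 h in 821 genes, at 2 h in 43, at 3 h in 97 and at 4 h in 1014. Most genes therefore changed in a single direction through the series: 881 had their peak at 1 h and floor at 4 h, and 639 the reverse. Interior peaks were more frequent than interior floors, and they sat mostly at 2 h, where 133 genes peaked before reaching their floor at 4 h. Which end of the series held more peaks depended on scaling, with 725 genes highest at 1 h and 895 at 4 h after median-of-ratios scaling, against 995 and 662 as deposited. For gene lists, the hour of the highest or lowest level is counted over all listed members, whatever their range. Counted that way, 44.4% of all 7050 genes were highest at 1 h, 16.2% at 2 h, 10.4% at 3 h and 29.1% at 4 h, and 34.9%, 13.7%, 10.9% and 40.5% were lowest at these hours.

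**Figure D2:**
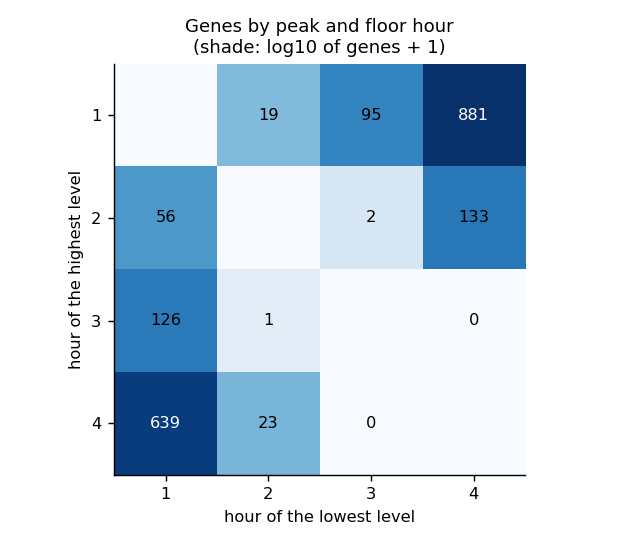
Number of genes by the hour of the highest level (vertical) and the hour of the lowest level (horizontal) of new RNA among the 1975 genes that spanned at least 2-fold, with darker shade for more genes. The corners hold 881 genes with a peak at 1 h and floor at 4 h and 639 with the reverse, and no gene paired 3 h with 4 h.

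The genes that declined from 1 h to 4 h had mostly come near their floor by 3 h. Among the 881 genes, 860 were lower at each successive hour, and the median net change was -1.39. The steps made up a median of 48.9%, 30.5% and 19.5% of this change. The first step was the steepest in 582 genes, the second in 255 and the last in 44. Within 0.32 of the floor on the log2 scale were 66 genes by 2 h, a further 442 by 3 h, and 373 only at 4 h. Relative to rest, the median of these genes was 0.11 at 1 h and -0.59, -1.04 and -1.33 at 2, 3 and 4 h. The floor therefore lay at least 2-fold below the resting level in 630 of them and at least 2-fold above it in 19. At 1 h, 70 of the 881 were at least 2-fold above rest.

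The genes that climbed from 1 h to 4 h mirrored this course. Of the 639 genes, 626 were higher at each successive hour, with a median net change of 1.43 and median shares of 47.4%, 35.8% and 15.3% for the steps. Within 0.32 of the peak were 24 genes by 2 h, a further 430 by 3 h and 185 only at 4 h. Their median relative to rest was 0.07 at 1 h, 0.76 at 2 h, 1.30 at 3 h and 1.55 at 4 h, so that at 1 h they were still near the resting level. In replicate 2, 631 of the 639 were higher at 4 h than at 1 h, with a median of 1.254, and 870 of the 881 declining genes were lower, with a median of -1.03.

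Immediate early transcription factors included the steepest declines of the series. Fos, a subunit of AP-1, was at 2.93 FPKM at rest and at 297, 39.0, 14.1 and 9.71 FPKM at 1, 2, 3 and 4 h. Egr1, a zinc finger factor, went from 188 FPKM at 1 h to 27.1, 12.9 and 10.5 FPKM. Egr2, which holds back T cell activation, stood at 284.8, 62.2, 42.9 and 31.6 FPKM. All 3 were highest at 1 h and lower at each later hour, yet still above rest at 4 h. Their first steps were -2.90, -2.75 and -2.18, the largest negative first steps of any gene with a standard name other than Lars2, Fosb and S1pr1. Replicate 2 had Fos at 308 and 32.4 FPKM at 1 and 4 h and Egr2 at 158 and 45.8 FPKM, so the direction was shared and the 4 h level was higher there.

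The orphan nuclear receptors of the Nr4a family had their larger drop in the second step. Nr4a1, a marker of receptor signal strength, was at 1267, 694, 190 and 119 FPKM, with the largest drop from 2 h to 3 h (a step of -1.87 after -0.87). Nr4a2 declined from 36.7 to 15.4, 3.15 and 1.63 FPKM and had the most negative step of all genes between 2 h and 3 h, -1.98. Egr3 split its decline evenly, with steps of -1.86 and -1.74. Not all members of the group declined: Junb, the AP-1 subunit, stayed at 364, 413, 361 and 359 FPKM, and Myc, the transcription factor of the growth programme, climbed from 177 to 312, 429 and 421 FPKM. Of the 21 listed immediate early factors, 7 were at least 2-fold lower in the first step and 9 in the second, against 1 and 0 higher. Over all genes 3.05% and 1.55% were at least 2-fold lower in these steps. The level was highest at 1 h in 13 of 21, beside 44.4% of all genes. The list medians were -0.38, -0.74 and -0.38, beside -0.04, -0.04 and -0.03 for all 7050 genes. In replicate 2 the net median of the list was -0.41 against -1.49 in replicate 1.

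Promoters of these genes can be set beside their hours. Among 7123 promoters of 5633 of the 7050 genes in RefSeq (GRCm38.p6, 250 bases before to 50 after the start, both strands searched), 1.26% held a CArG box, the element bound by serum response factor. The share was 2.15% (23 of 1072 promoters) in genes that peaked at 1 h and 2.90% (6 of 207) at 2 h. It was 0.813% (1 of 123) at 3 h and 1.11% (7 of 629) at 4 h. The share was thus not highest in the 1 h group, but the counts at the later hours are small. In the immediate early list it was 22.7% (5 of 22 promoters). Of those 5 promoters, however, 4 belong to Egr2, which has 5 entries, and without Egr2 the share was 1 of 17 (5.88%). Dusp5, a phosphatase that dampens ERK signalling, had 2 adjacent CArG boxes, the most of any listed gene that peaked at 1 h, and its levels were 775, 699, 441 and 267 FPKM. Its promoter on the plus strand of chr19:53528895-53529194 is shown for these elements, in capitals, the first of which starts 82 bases before the transcription start. A match is a run of letters and not evidence of binding.

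Dusp5: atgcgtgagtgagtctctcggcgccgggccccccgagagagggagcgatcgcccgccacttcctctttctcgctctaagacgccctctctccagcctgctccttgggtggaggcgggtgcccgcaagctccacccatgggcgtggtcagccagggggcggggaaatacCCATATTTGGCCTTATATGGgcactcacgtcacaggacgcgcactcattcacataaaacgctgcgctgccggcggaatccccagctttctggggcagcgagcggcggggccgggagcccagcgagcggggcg

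Messenger RNA decay factors, which shorten the life of cytokine transcripts, and Tnf shared the early peak. Zfp36, which binds AU-rich elements, was at 176 FPKM at 1 h and 56.8, 26.5 and 26.9 FPKM later, so that its floor was reached by 3 h, close to the resting 31.0 FPKM. Btg2, an antiproliferative factor, kept declining, at 348, 153, 65.2 and 40.6 FPKM. In the list, 13 of 16 members were highest at 1 h, beside 44.4% of all genes, with medians of -0.37, -0.22 and -0.21. Tnf, the inflammatory cytokine, was at 2804, 1185, 841 and 754 FPKM, far above its resting 89.6 FPKM throughout. In replicate 2 Tnf was at 757 and 330 FPKM at 1 and 4 h, lower in level but again lower at 4 h.

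**Figure D3:**
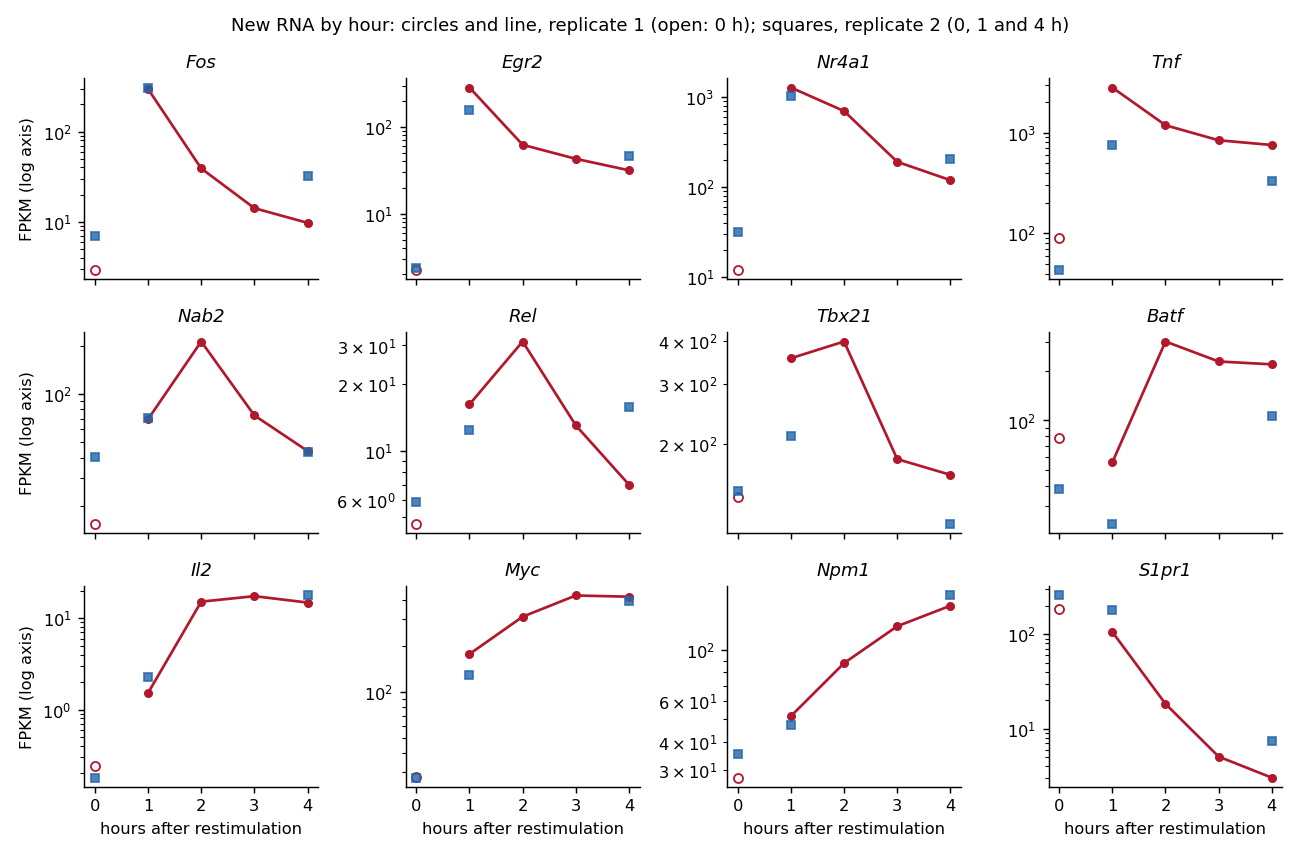
New RNA level in FPKM (log axis) by hours after restimulation for 12 genes, as circles and a line for replicate 1 (open circle for 0 h) and squares for replicate 2 at 0, 1 and 4 h. Fos, Egr2, Nr4a1, Tnf and S1pr1 are highest at 1 h among the stimulated hours, Nab2, Rel, Tbx21 and Batf at 2 h, Il2 and Myc at 3 h, and Npm1 at 4 h.

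A peak at 2 h was the main departure from a course in a single direction. The level at 2 h was at least 2-fold above both neighbouring hours in 11 genes, and below both in 1 gene, Lars2. No gene did so at 3 h in either direction. Nab2, a corepressor of the Egr factors, was at 69.4 FPKM at 1 h, 212 FPKM at 2 h, and 73.3 and 44.0 FPKM at 3 and 4 h. Rrad, a small GTPase of the RGK family, followed the same course at 99.3, 267, 78.8 and 53.6 FPKM. Srxn1, which repairs oxidised peroxiredoxins, was at 8.28, 29.9, 10.9 and 8.02 FPKM. In all 3 the level at 2 h stood alone and the 3 h level was back near that of 1 h. Ramp3, a receptor partner protein, had 4.55, 14.2, 4.16 and 1.52 FPKM, but in replicate 2 it was at 15.7 and 37.5 FPKM at 1 and 4 h, so the low 4 h level was not shared. Erf, Fhl2, Grasp, Itga3, Spag9 and Tnfrsf12a, named after their values were seen, were also among the 11.

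The 2 h peak rests on a single library of new RNA, and other libraries bear on it. Footprints at 1, 2 and 4 h of replicate 1 were highest at 2 h in 122 of the 133 genes (91.7%) that peaked at 2 h and had their floor at 4 h, against 29.4% of all 7050 genes. Over all 191 genes with a peak at 2 h the share was 81.2%. The median footprint level of the 133 genes was 0.70 higher at 2 h than at 1 h and then changed by -1.12 to 4 h. In total RNA their median was 0.78 higher at 2 h than at rest and changed by -0.97 from 2 h to 4 h. Nab2 footprints, for example, were at 54.0, 321 and 79.1 FPKM at 1, 2 and 4 h, and Rrad footprints at 103, 480 and 68.1 FPKM. Replicate 2 has no 2 h library of new RNA, so the peak itself could not be compared there. From 1 h to 4 h the net median of the 133 genes was -0.88 in replicate 1 and -0.37 in replicate 2. In replicate 2, 99 of them were lower at 4 h and 34 higher. Whether the libraries of the same hour came from the same culture is not stated in the labels.

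**Figure D4:**
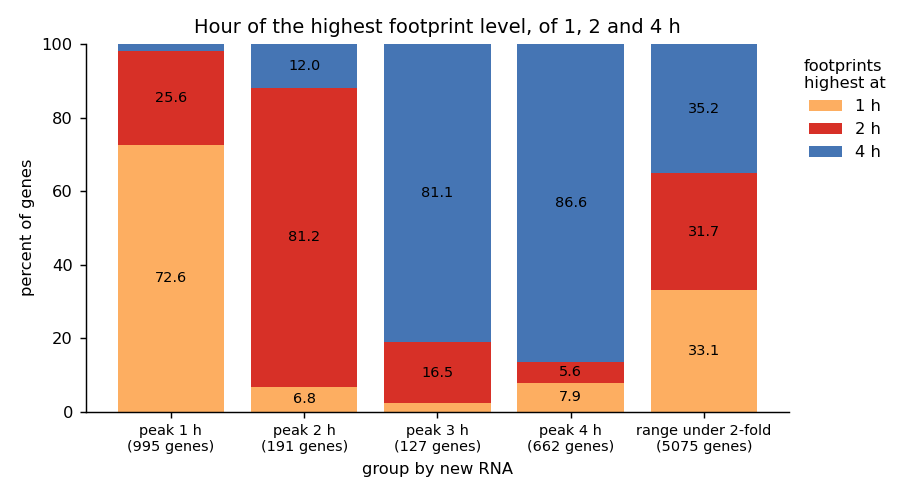
Percent of genes whose footprint level was highest at 1, 2 or 4 h (stacked colours) in each group of genes by the peak hour of new RNA, and in the 5075 genes whose new RNA spanned less than 2-fold. Footprints were highest at 1 h in 72.6% of genes with a 1 h peak, at 2 h in 81.2% with a 2 h peak, and at 4 h in 81.1% and 86.6% with a 3 h and a 4 h peak.

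Footprint timing followed new RNA in the other groups as well. Genes with a peak of new RNA at 1 h had their highest footprint level at 1 h in 72.6% of cases. For a peak at 4 h, footprints were highest at 4 h in 86.6%, and for a peak at 3 h, an hour without a footprint library, in 81.1%. In genes whose new RNA spanned less than 2-fold the highest footprint hour was spread evenly, at 33.1%, 31.7% and 35.2%. Genes with a peak at 1 h and floor at 4 h had a median footprint change of -0.23 from 1 h to 2 h and -0.69 from 2 h to 4 h. The later interval is 2 h long, and new RNA of these genes had steps of -0.70 in the first hour and -0.45 and -0.28 in the following ones.

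NF-kB subunits and targets gathered at 2 h. Of 22 members, 16 were highest at 2 h, against 1141 of all 7050 genes. In the first step 7 were at least 2-fold higher, beside 3.52% of all genes. The list medians were 0.86, -0.45 and -0.33. The net median from 1 h to 4 h was -0.13 in replicate 1 and 0.34 in replicate 2, so its direction was not shared. Rel, the c-Rel subunit, was at 16.2, 31.3, 13.0 and 7.01 FPKM, and its footprints at 39.1, 172 and 46.0 FPKM at 1, 2 and 4 h. Rel was thus back below its 1 h level by 3 h. In replicate 2 Rel was at 12.4 and 15.7 FPKM at 1 and 4 h, so the low 4 h level was not shared. Tnfrsf9, the costimulatory receptor 4-1BB, reached a plateau instead, at 54.3, 241, 250 and 177 FPKM. Nfkbia, the inhibitor that returns NF-kB to the cytoplasm, hardly moved, at 676, 716, 622 and 485 FPKM, all above its resting 170 FPKM.

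The NF-kB motif, GGG and TTTCC separated by any 2 bases, was found in 1.64% of all promoters searched. For genes with a peak at 1 h it was in 1.31% (14 of 1072) and at 2 h in 3.38% (7 of 207). For a peak at 3 h it was in 4.07% (5 of 123) and at 4 h in 0.636% (4 of 629). In the NF-kB list, which was chosen for such genes, it was in 30.8% (8 of 26 promoters, from 6 of 18 genes), or 5 of 23 without the 3 entries of Nfkb2. The promoters of Rel (minus strand of chr11:23770920-23771219) and Tnfrsf9 (plus strand of chr4:150927749-150928048) are printed with the match in capitals, as the listed genes with a match and the widest range among those with a peak at 2 h and at 3 h. The match starts 91 bases before the start in Rel and 43 bases before it in Tnfrsf9.

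Rel: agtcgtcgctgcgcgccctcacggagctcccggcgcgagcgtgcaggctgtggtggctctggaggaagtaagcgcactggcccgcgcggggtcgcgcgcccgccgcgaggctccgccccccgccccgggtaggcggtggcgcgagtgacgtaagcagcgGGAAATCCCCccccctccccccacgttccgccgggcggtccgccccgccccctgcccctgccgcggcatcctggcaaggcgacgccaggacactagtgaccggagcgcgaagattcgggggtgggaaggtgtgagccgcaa

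Tnfrsf9: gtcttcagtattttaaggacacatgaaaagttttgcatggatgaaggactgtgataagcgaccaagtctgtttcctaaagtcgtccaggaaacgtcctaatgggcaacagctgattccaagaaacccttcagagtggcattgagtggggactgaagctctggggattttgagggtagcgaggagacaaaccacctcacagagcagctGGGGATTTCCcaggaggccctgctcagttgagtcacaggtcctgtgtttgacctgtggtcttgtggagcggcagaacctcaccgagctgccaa

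Genes of the T cell receptor machinery also clustered at 2 h, with smaller steps. Of 23 members 15 were highest at 2 h, beside 16.2% of all genes. A range of at least 2-fold over the 4 hours was found in 8 of the 23, beside 28.0% of all genes. None moved by 2-fold in any step, and the list medians were 0.24, -0.43 and -0.14. Ptpn22, a phosphatase that restrains receptor signalling, was at 67.5, 78.0, 40.2 and 27.3 FPKM. It was lowest at 4 h, below its resting level of 47.2 FPKM. Tbx21, the factor T-bet that defines Th1 cells, was high at 1 and 2 h and much lower from 3 h on, at 357, 399, 181 and 162 FPKM, and its footprints were at 276, 474 and 166 FPKM at 1, 2 and 4 h. Irf8, an interferon regulatory factor, went from 89.6 to 231, 173 and 128 FPKM.

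Factors that dampen the response had no common hour. Of 25 signal feedback inhibitors 9 were highest at 1 h, 8 at 2 h, 5 at 3 h and 3 at 4 h (beside 44.4%, 16.2%, 10.4% and 29.1% of all genes), with list medians of 0.32, -0.19 and -0.26. Havcr2, the inhibitory receptor TIM-3, climbed from 11.96 to 33.2, 48.0 and 51.8 FPKM. Dgka, a kinase that removes diacylglycerol, declined from 145 to 86.7, 55.2 and 42.3 FPKM, below its resting 238 FPKM. Mxd1, an antagonist of Myc outside this list, was at 261, 356, 105 and 57.1 FPKM, with a second step of -1.75.

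Effector cytokines were highest at different hours, in shares near those of all genes. Of 21 members 7 were highest at 1 h, 3 at 2 h, 3 at 3 h and 8 at 4 h (beside 44.4%, 16.2%, 10.4% and 29.1% of all genes). In the first step 7 were at least 2-fold higher and 1 lower, beside 3.52% and 3.05% of all genes. The median of that step was 0.58, and 2.05 with the 1 h library of replicate 2. Ifng, the hallmark cytokine of Th1 cells, had already reached 5211 FPKM at 1 h from 101 FPKM at rest and then stood at 6908, 7227 and 7580 FPKM, so its hourly steps were at most 0.41. Il2, the T cell growth factor, was still at 1.52 FPKM at 1 h and then at 15.2, 17.4 and 14.9 FPKM, with a first step of 2.68. The course of Csf2 was gradual: this gene for GM-CSF was at 58.2, 116, 194 and 224 FPKM. Il3, a haemopoietic growth factor with a range under 2-fold, was highest at 2 h, at 92.3, 174, 127 and 109 FPKM. Il24, a cytokine of the IL-10 family, was the late member, at 2.72, 10.9, 47.1 and 90.3 FPKM. Replicate 2 had Ifng at only 737 and 2368 FPKM and Il24 at 0.13 and 37.0 FPKM at 1 and 4 h, so the levels of Ifng were far apart between the replicates while both series were higher at 4 h.

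The largest first steps upward included genes with almost no new RNA at 1 h. Crabp2, a retinoic acid binding protein, went from 0.64 to 15.4 FPKM, a step of 3.32, and then to 8.71 and 7.40 FPKM. Crtam, an adhesion receptor of activated T cells, was at 1.49, 14.7, 24.1 and 13.1 FPKM. Batf, an AP-1 family factor that works with Irf4, went from 55.5 to 303, 229 and 220 FPKM. All 3 had 2 h levels several fold above 1 h and no further climb past 3 h. Ccl1, a chemokine, went from 2.87 to 22.4, 19.7 and 17.9 FPKM, but reached only 2.58 FPKM at 4 h in replicate 2.

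Other genes had large second steps. Lad1, an anchoring filament protein, was at 0.10, 3.17, 17.6 and 22.1 FPKM, with the largest second step, 2.15. Batf3, a relative of Batf, was at 1.80, 7.27, 33.3 and 52.6 FPKM. Eomes, a T-box factor of cytotoxic cells, was at 1.20, 4.05, 15.5 and 14.4 FPKM. Batf3 and Eomes had a larger second than first step, while Lad1 did so only with the pseudocount of 1, its steps being 4.03 and 2.43 with a pseudocount of 0.1. In replicate 2 Lad1 reached 19.6 FPKM, Batf3 only 5.47 FPKM and Eomes 37.1 FPKM at 4 h, from 0.09, 0.46 and 1.13 FPKM at 1 h.

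Peaks at 3 h were shallow. None stood 2-fold above both sides, and the largest prominence (the smaller of the climb before and the decline after) was 0.86, in Perp, a p53 target of the cell membrane, at 1.77, 8.50, 10.3 and 5.23 FPKM. Pfkfb3, which makes an activator of glycolysis, was at 6.65, 11.8, 13.5 and 8.22 FPKM, and Ndrg1, a stress-induced gene, at 24.9, 60.4, 61.9 and 35.8 FPKM. Each had 2 h and 3 h close together at the top. In replicate 2 both were higher at 1 h than here, at 14.3 and 60.3 FPKM, and stood at 26.9 and 51.5 FPKM by 4 h.

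The glycolysis list shares that dependence on the replicate. In replicate 1, 5 of its 13 members were at least 2-fold higher in the first step, beside 3.52% of all genes. Of the 13, 7 were highest at 2 h and 4 at 3 h, beside 16.2% and 10.4% of all genes. The list medians were 0.92, -0.09 and -0.22. Tpi1, which interconverts the triose phosphates, was at 53.4, 172, 205 and 155 FPKM. In replicate 2, however, Tpi1 was at 303 and 401 FPKM at 1 and 4 h. With the 1 h library of replicate 2 in place of that of replicate 1 the list median of the first step was -0.26, so its direction is not shared between the replicates.

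Ribosome biogenesis factors climbed together in replicate 1, with the largest median step between 1 h and 2 h. Of 47 ribosome biogenesis factors 45 were highest at 4 h and 45 lowest at 1 h, against 2050 and 2463 of all 7050 genes. The medians of the list were 0.85, 0.49 and 0.20, and 14 members were at least 2-fold higher in the first step, beside 3.52% of all genes. Relative to rest, the list median was 0.58 at 1 h and 2.15 at 4 h. Nop16, a nucleolar protein, was at 5.29, 37.1, 59.0 and 68.4 FPKM, and Polr1b, a subunit of RNA polymerase I, at 5.06, 20.2, 42.5 and 44.6 FPKM. Both gained most between 1 h and 2 h and little after 3 h. Npm1, a nucleolar chaperone, climbed more slowly, at 51.6, 87.7, 127 and 156 FPKM. The net median of the list was 1.58 in replicate 1 and 1.71 in replicate 2. With the 4 h library of replicate 2 the median of the last step was -0.14, so its direction is not shared between the replicates.

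The E-box CACGTG, the element bound by Myc and related factors, was in 11.0% of the promoters searched, in 16.4% for genes with a peak at 4 h and in 25.6% (11 of 43) for the ribosome biogenesis list. Nop2, a ribosomal RNA methyltransferase at 36.4, 91.8, 153 and 195 FPKM, had the widest range among the 14 listed genes with a peak at 4 h and a match. Its promoter on the plus strand of chr6:125131633-125131932 has the E-box, in capitals, 60 bases before the start. Myc new RNA itself was highest at 3 h.

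Nop2: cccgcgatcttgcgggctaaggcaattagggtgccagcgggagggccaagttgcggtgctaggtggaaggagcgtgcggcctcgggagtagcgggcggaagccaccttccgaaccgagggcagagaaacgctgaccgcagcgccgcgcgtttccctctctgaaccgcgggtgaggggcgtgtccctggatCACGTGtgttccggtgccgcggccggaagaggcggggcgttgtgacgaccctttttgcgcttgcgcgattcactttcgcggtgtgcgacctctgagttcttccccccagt

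In replicate 1, cytosolic ribosomal proteins followed a different rhythm from the factors that assemble them. Of 39 members 38 were highest at 4 h, beside 29.1% of all genes. None moved by 2-fold in a step, and the medians of 0.37, 0.35 and 0.42 did not shrink with time. Rplp1, a protein of the ribosomal stalk, was at 105, 176, 293 and 447 FPKM, and Rps15, a small subunit protein, at 155, 292, 414 and 611 FPKM. In replicate 2 Rplp1 was at 200 FPKM and Rps15 at 249 FPKM at 4 h. With the 1 h library of replicate 2 the list median of the first step was 0.78. With its 4 h library that of the last step was -0.21. For ribosome biogenesis factors these medians were 1.35 and -0.14. The even size of the steps and the direction of the last step are thus not shared between replicates. The net median was 1.15 in replicate 1 and 0.92 in replicate 2. Ribosomal protein genes have many processed pseudogene copies, so reads may be split among copies.

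Other parts of the protein factory joined in smaller steps. Chaperones had medians of 0.61, 0.33 and 0.19, and the last was -0.17 with the 4 h library of replicate 2. Of 17 members 15 were highest at 4 h in replicate 1, beside 29.1% of all genes. They were led by Hspd1, the mitochondrial chaperonin, at 29.4, 68.1, 119 and 147 FPKM. Endoplasmic reticulum chaperones had medians of 0.17, 0.47 and 0.19. With replicate 2, the first was 0.69 (its 1 h library) and the last -0.13 (its 4 h library). Sdf2l1, a member of that chaperone complex, was at 20.4 and 22.0 FPKM at 1 and 2 h and at 44.8 and 70.9 FPKM at 3 and 4 h. Aminoacyl-tRNA synthetases had medians of 0.19, 0.35 and 0.15 with 19 of 20 highest at 4 h, beside 29.1% of all genes. In the list of amino acid and one-carbon genes, Srm, the spermidine synthase, moved most, at 18.9, 82.6, 153 and 212 FPKM. Translation initiation factors had medians of 0.49, 0.20 and 0.12. Oxidative phosphorylation subunits had none of 25 members past a 2-fold range, and proteasome subunits 2 of 31, beside 28.0% of all genes.

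**Figure D5:**
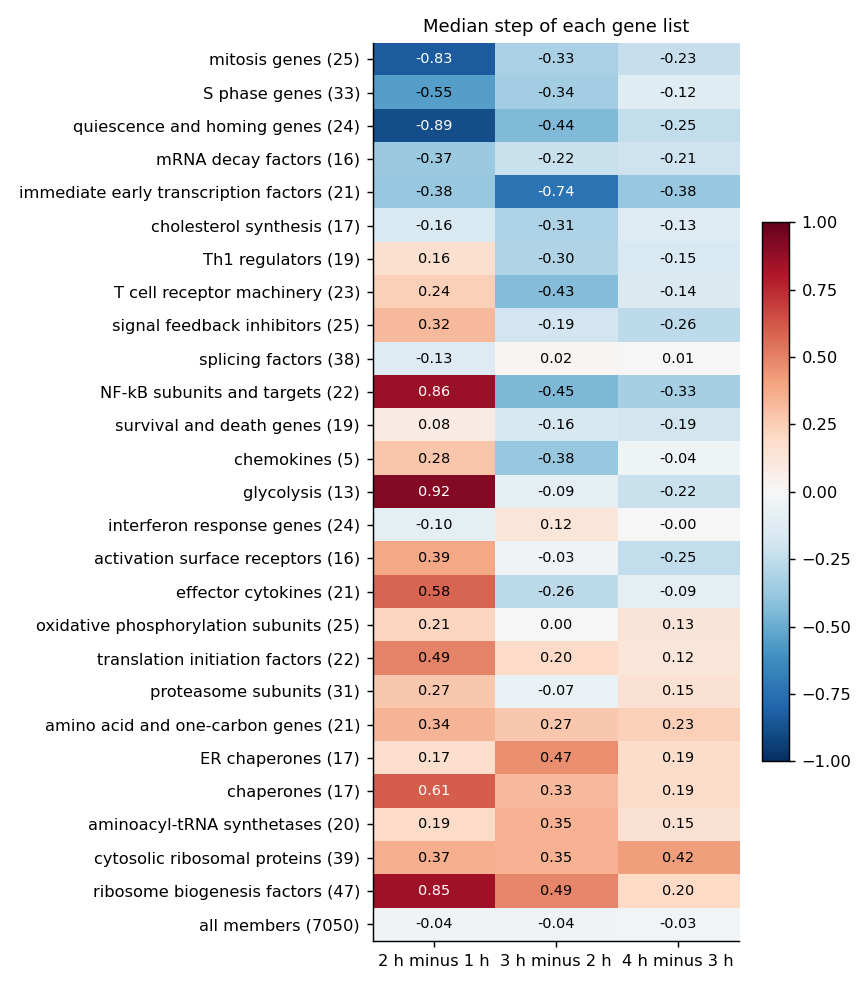
Median difference in log2(FPKM + 1) of each gene list (vertical, with its number of genes) in the 3 hourly steps (horizontal) for values as deposited, ordered from lists highest early to lists highest late, with all 7050 genes at the bottom. Mitosis and quiescence genes are lower in each step, NF-kB genes are higher and then lower (0.86, -0.45), and ribosome biogenesis factors are higher in each step; interferon response genes (-0.10 in the first step) are at 0.01 there after median-of-ratios scaling, and last-step medians differ with the 4 h library of replicate 2.

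Genes of the resting, circulating T cell had a negative median in each step of replicate 1. The 24 quiescence and homing genes had medians of -0.89, -0.44 and -0.25. In the first and second steps 9 and 4 members were at least 2-fold lower, beside 3.05% and 1.55% of all genes, and none was at least 2-fold higher. By any amount, 4, 2 and 2 of the 24 were higher in the successive steps. S1pr1, the receptor that lets T cells leave lymphoid tissue, was at 185 FPKM at rest and at 106, 18.3, 5.05 and 3.02 FPKM at 1 to 4 h. Klf2, the factor that drives S1pr1, was at 112 FPKM at rest and at 61.0, 22.5, 15.7 and 13.2 FPKM. Cxcr3, a chemokine receptor of Th1 cells, was at 35.4, 13.0, 3.95 and 3.30 FPKM. The last steps of S1pr1, Cxcr3 and Klf2 were -0.59, -0.20 and -0.24, so that the latter pair was close to its floor at 3 h and S1pr1 was not. The net median of the list was -1.49 in replicate 1 and -1.48 in replicate 2. With the 4 h library of replicate 2 the median of the last step was 0.31.

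Cell division genes had a similar course. All 25 mitosis genes were highest at 1 h, beside 44.4% of all genes, and the list medians were -0.83, -0.33 and -0.23. In the first step 6 members were at least 2-fold lower, beside 3.05% of all genes. Nusap1, a spindle protein, was at 41.1, 21.4, 13.1 and 8.38 FPKM, and Ect2, which drives cytokinesis, at 20.6, 8.51, 5.28 and 3.97 FPKM. Of 33 S phase genes 32 were highest at 1 h, with medians of -0.55, -0.34 and -0.12. E2f2, a factor of the cell cycle, was at 165, 65.8, 28.5 and 23.2 FPKM. At 1 h these genes were near their resting level (median differences of -0.16 and 0.20), and at 4 h below it (-1.47 and -0.82). Replicate 2 had net medians of -0.97 for mitosis and -1.20 for S phase genes.

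Cholesterol synthesis and interferon genes were mixed. In cholesterol synthesis 12 of 17 members were highest at 1 h, beside 44.4% of all genes. Hmgcs1, an early enzyme of that synthesis, held until 2 h, at 80.4, 71.7, 45.7 and 29.7 FPKM. With the 1 h library of replicate 2 the median of the first step in that list was 0.65 in place of -0.16. Interferon response genes had medians of -0.10, 0.12 and 0.00, and the 2 guanylate binding proteins in the named set, Gbp2 and Gbp2b, declined most in the last step, from 134 to 72.4 FPKM and from 200 to 105 FPKM.

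The last step was small for nearly all genes. Gfod1, an oxidoreductase-like gene, had the most negative one, -1.13, at 6.61, 38.2, 32.5 and 14.3 FPKM. It had been high at 2 and 3 h and was lower at 4 h. Upward, Vav3, an exchange factor for small GTPases, was at 2.78, 2.58, 5.91 and 12.8 FPKM with a last step of 1.00, and it reached 28.2 FPKM at 4 h in replicate 2. Tnfrsf8, the receptor CD30, was at 8.46, 9.93, 25.0 and 48.1 FPKM.

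Gene length went with the direction of the last step in replicate 1. The 461 genes at least 0.3 higher at 4 h than at 3 h had a median span from start to end of 8034 bases in GENCODE M21. The 881 genes at least 0.3 lower had a median span of 35504 bases, and the 5708 genes between had 20785 bases. Median exon length had the same order, at 2302.5 bases for the higher, 4392 for the middle and 5631.5 for the lower genes. In the first step the medians were 16935 bases for genes at least 0.3 higher and 25766 bases for genes at least 0.3 lower. The genes with a peak at 4 h and floor at 1 h had a median span of 12112 bases, against 30628 bases for the reverse course and 21668 bases over all genes. The last step, with an SD of 0.24, was smaller than the gap between replicates at 4 h, with an SD of 0.55. These lengths were not compared with the 4 h library of replicate 2. The part of gene length in the steps was not tested.

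Histone cluster genes, named after their values were seen, had their floor at 3 h in replicate 1. Of 56 such genes 51 were lowest at 3 h, against 767 of all 7050, although only 11 of the 56 spanned 2-fold, beside 28.0% of all genes. The step medians were -0.20, -0.49 and 0.45. Their summed level was 35892 FPKM at rest and 28089, 23665, 17206 and 23017 FPKM at 1 to 4 h. In replicate 2 the sum was 18415 and 8334 FPKM at 1 and 4 h, so that the net median of -1.22 there compares with -0.22 in replicate 1. The sum at 4 h in replicate 1 thus lay above that at 3 h, and with the 4 h library of replicate 2 the last step had a median of -1.12. In replicate 1 the sum in total RNA was 11839 FPKM at 2 h and 10751 FPKM at 4 h. In footprints it was 275047 FPKM at 2 h and 152373 FPKM at 4 h. Neither readout has a 3 h library. Hist1h2ad, an H2A gene, showed the largest last step of all, 1.63, at 401, 142, 82.7 and 258 FPKM. Copies of these genes are nearly identical, so values of single copies are uncertain.

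Lars2, the mitochondrial leucyl-tRNA synthetase, stood apart from every other gene. Its levels of 29.6, 2.13, 12.7 and 27.7 FPKM gave steps of -3.29, 2.13 and 1.07, the most negative first step of all genes. In replicate 2 it was at 278 and 29.1 FPKM at 1 and 4 h, and in total RNA it ranged from 3.62 to 389 FPKM across libraries. Footprints stayed between 4.59 and 7.34 FPKM in all 8 footprint libraries, and the cause of the spread was not tested. Among other floors at 2 h, Chst12, a chondroitin sulfotransferase, was at 17.8, 5.58, 10.4 and 15.3 FPKM, and its footprints at 44.9, 14.9 and 20.98 FPKM at 1, 2 and 4 h were lowest at 2 h too. Pdcd4, an inhibitor of translation initiation, was at 32.9, 12.1, 22.1 and 19.7 FPKM. The 43 genes with a floor at 2 h had their lowest footprints at 2 h in 67.4%, against 23.6% of all 7050 genes.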

How the data were processed

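New RNA, total RNA and ribosome footprints were measured in 24 libraries, of which the 4 hourly new RNA libraries of replicate 1 carry the steps. The reads, per the submitters' processing notes, were assigned to genes of GRCm38 by featureCounts (Subread 1.4.6-p3), and the deposited values are FPKM with 2 decimals for 9420 genes. The aligner, the gene lengths, the strand setting and the filter behind the table were not given in the sources used here. Depth is unknown: low values did not resolve into whole reads, with at most 36.0% within 0.1 of a read against 20% by even spread.

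Of the gene identifiers 9412 matched GENCODE M21 and 8 did not. Values were transformed as log2(FPKM + 1), which understates the change of low genes, and summarised in Python 3.11.15 with pandas 2.3.3 and numpy 2.4.6. The counting of steps, peaks and floors was tested on simulated data. With 1 library per hour no test was made. Named genes were the 8 with the largest step per direction, the 6 most prominent interior peaks or floors per hour, the 2 members of each of 26 lists with the widest range, and 20 followed genes. Gene models without a standard name, pseudogenes and small RNAs were left out of the first 2 kinds. The members, lists and followed genes were chosen with earlier results of these data known. The promoters printed belong to followed or listed genes with most matches to the motif whose share in their peak-hour group was furthest above that of all members, among motifs that such a gene held. This choice of motif was made with the shares in view, because GC boxes, found in 65.6% of promoters, would otherwise have decided it. Alternatives were another pseudocount, other expression limits, median-of-ratios scaling, a wider range, and the 1 h or 4 h library of replicate 2. Some single-gene values are not reported here.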

Additional observations from a re-analysis of the deposited data

How the results depend on the processing

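No paired analysis was possible because the results come from no test and the 2 h and 3 h groups have 1 library each. Leaving out a library was not possible for the same reason, so the 1 h and 4 h libraries of replicate 2 were put in place of those of replicate 1. With the 1 h library of replicate 2, 652 genes were at least 2-fold higher and 490 lower in the first step. With the 4 h library of replicate 2, 110 genes were at least 2-fold higher and 207 lower in the last step, against 3 and 3. Those steps also hold the difference between the replicates. With a mean FPKM of at least 20, the steps had 165 higher and 68 lower, 21 and 64, and 1 and 1, peaks at 1 to 4 h numbered 379, 120, 62 and 359, and floors 453, 11, 46 and 410. With a mean of at least 1, the last step had 7 higher and 6 lower, and 79 genes had a floor at 2 h. With a pseudocount of 0.1, the last step had 7 lower, and 67 genes had a floor at 2 h. With a range of at least 4-fold, peaks numbered 122, 17, 23 and 101, and floors 129, 1, 9 and 124. All 14 counts stayed within 1.5-fold under median-of-ratios scaling. For single named genes, 316 of the steps moved by less than the spread of the gene's net change between replicates under scaling and 29 by more, and 322 and 23 under the smaller pseudocount. No named gene with a step of at least 2-fold changed sign under either setting.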
